A study of Mus musculus with 8 samples.

Results

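The plasma cells of the lung grafts were the cells that carried the label plasma cell in the deposited table of cells, and there were 172 of them among 20778 cells. Libraries came from 8 mice that received an orthotopic left lung graft and were sacrificed 1 month later. All recipients were C57BL/6 (B6) mice, the mice were male, no immunosuppression was given to either group, and ages are not given in the sources used here. In the B6B6 group (5 mice) the graft came from a B6 donor and was a non-rejected control. In the HLAB6 group (3 mice) the donor, from Jackson (/J), was a C57BL/6 mouse that carried Tg(HLA-A2.1)1Enge, a transgene for the human class I antigen HLA-A2, and these grafts developed bronchiolitis obliterans syndrome (BOS), the airway-scarring form of chronic rejection. Donor and recipient were thus of 1 strain in B6B6, and the donor carried the transgene in HLAB6. The mouse was the replicate throughout. Libraries were made with the 10x Genomics 3′ kit from 10000 loaded cells each, and reads are counted as unique molecular identifiers (UMIs), each of which stands for 1 captured RNA molecule.

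Plasma cells are the end stage of B cell differentiation and secrete antibody. The factors Irf4, Blimp-1 (encoded by Prdm1) and Xbp1 switch off the B cell program held by Pax5 and enlarge the endoplasmic reticulum (ER), where immunoglobulin (Ig) chains are inserted, glycosylated, folded and paired before export. The load of new protein is sensed by the unfolded protein response, whose factors Xbp1 and Atf6 bind ER stress elements in the promoters of chaperone genes. In lung, plasma cells sit around airways and make IgA, IgM and IgG, and the constant region of the heavy chain names the class.

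The labelled cells are described by Jchain (the joining chain of secreted IgM and IgA), Xbp1 and Mzb1 (an ER cochaperone for Ig heavy chains). The label was drawn from clusters of these counts, and the study defined plasma cells by Xbp1 and Mzb1 among others. High levels were thus built in and are no independent check of the label. With each cell thinned to 1000 UMIs, which 147 plasma cells, 2010 of 2286 B cells and 3906 of 5071 T cells reached, the expected share of cells with a Jchain UMI was 96.7% of plasma cells, 0.968% of B cells and 0.505% of T cells. For Xbp1 these shares were 59.0%, 6.74% and 4.58%. For Mzb1 they were 77.1%, 33.2% and 0.0816%. Without thinning, 97.1%, 1.44% and 0.927% of all cells of these types had a Jchain UMI. In the deposited clustering of B and plasma cells, made from the same data, 164 of the 172 cells were in subcluster 2, and 8 B cells were in it too.

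**Figure D1:**
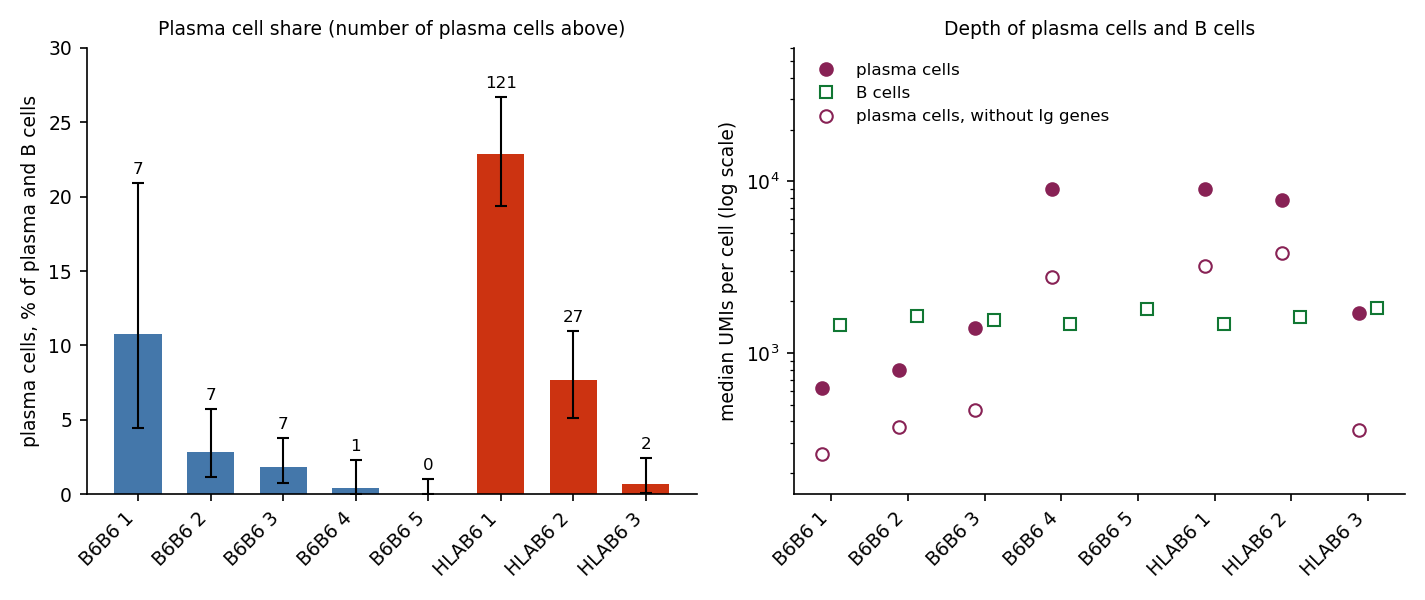
Left, plasma cells as a percentage of plasma and B cells in each mouse, with 95% exact binomial intervals and the number of plasma cells above each bar; HLAB6 1 reached 22.9%, B6B6 1 10.8% and B6B6 5 held none. Right, median UMIs per plasma cell with and without Ig genes and per B cell on a log scale; the filled circles of B6B6 4, HLAB6 1 and HLAB6 2 lie above their B cells, and those of the other 4 mice lie below.

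HLAB6 grafts held 150 of the 172 plasma cells, and 148 of these were in HLAB6 1 and HLAB6 2. By mouse, B6B6 1 to 5 held 7, 7, 7, 1 and 0 plasma cells beside 58, 240, 370, 237 and 358 B cells. HLAB6 1 to 3 held 121, 27 and 2 beside 408, 324 and 291 B cells. As a share of plasma and B cells together this was 10.8% (95% exact binomial interval 4.44 to 20.9), 2.83%, 1.86%, 0.420% and 0% in B6B6 1 to 5. The exact interval of the 0 in B6B6 5 reached 1.03%. In the HLAB6 mice the share was 22.9% (19.4 to 26.7), 7.69% and 0.683%. HLAB6 1 was above every B6B6 mouse, HLAB6 2 was above all of them but B6B6 1, and HLAB6 3 was below 3 of them, so the groups overlapped. The mean share was 3.18% ± 4.39 (SD, n = 5) in B6B6 and 10.4% ± 11.3 (SD, n = 3) in HLAB6, a difference of 7.24 percentage points (exact permutation test over mice, two-sided, p = 0.321, smallest possible p = 0.0357). The difference was 1.01 without HLAB6 1. All intervals cover counting error only.

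A cell barcode that occurs in libraries of different mice was counted, since 4.88% of all cells and 19 of the 172 plasma cells had one. The plasma cells concerned were 6 of 7 in B6B6 1, 6 of 7 in B6B6 2, 1 of 7 in B6B6 3, 3 in HLAB6 1 and 3 in HLAB6 2. These 19 cells formed 19 pairs across mice, of which 11 joined plasma cells on both sides, and in all 11 the same heavy chain class led in both cells. Among the 12 such cells of B6B6 1 and B6B6 2, 11 had a plasma cell as a partner.

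In 8 of these pairs a shallow cell in B6B6 1 or B6B6 2 met a deep one that held 11.3 to 34.6 times as many UMIs. For the 6 pairs whose deep cell was in HLAB6 2 or B6B6 2, 93.3 to 97.7% of the shallow cell's UMIs outside Ig genes fell in genes that the deep cell also showed. That was more than with any other deep plasma cell of the same mouse, though B6B6 2 held only 1 other. The other cells were not matched for depth, and the deepest plasma cell of all, at 32929 UMIs, was among the partners. For the pairs with HLAB6 1 the share was 67.8% and 62.6%. This was above the medians of 54.7% and 55.9% for the other deep plasma cells of that mouse. It was below the highest of them, 70.9% and 74.8%. Most plasma cells of B6B6 1 and B6B6 2 thus shared both barcode and class with a cell of another mouse, and the cause was not tested.

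Without cells that shared a barcode, 9 plasma cells remained in B6B6 and 144 in HLAB6. The mean share of plasma cells among plasma and B cells was then 0.860% ± 0.812 (SD, n = 5) in B6B6 and 10.3% ± 11.4 (SD, n = 3) in HLAB6. The difference was 9.40 percentage points (exact permutation test, p = 0.107). Within the 2 sets of libraries that did (B6B6 1, 2, 3 and HLAB6 2) or did not share over 3% of their barcodes, the mean difference was 7.05 (exact permutation within sets, p = 0.333, smallest possible p = 0.0833).

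**Figure D2:**
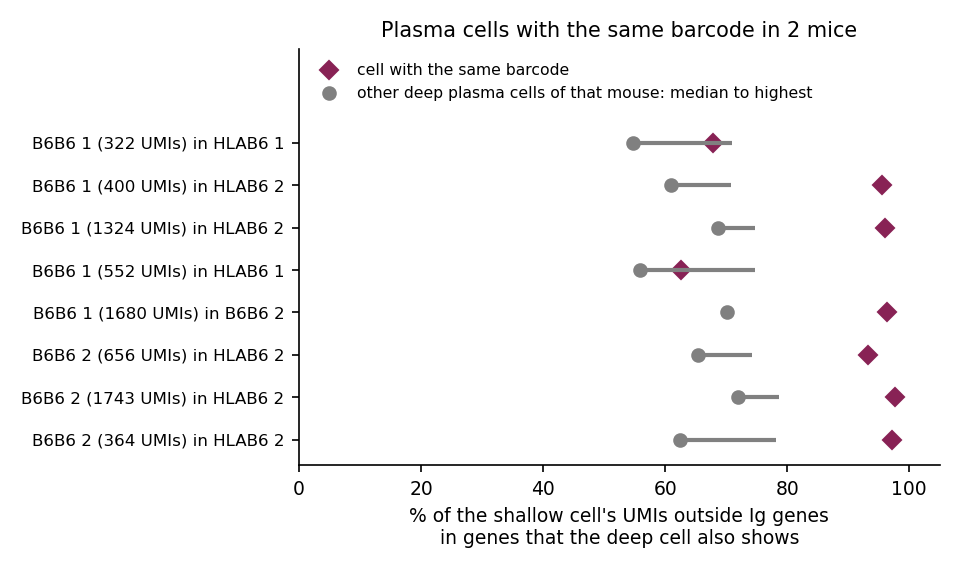
For each of 8 pairs of plasma cells with the same barcode, the percentage of the shallow cell's UMIs outside Ig genes that lay in genes shown by the deep cell (diamond), beside the median (circle) and highest value (end of line) with the other deep plasma cells of that mouse. In 6 pairs the diamond lies at 93.3 to 97.7%, to the right of every other cell, of which the pair in B6B6 2 had only 1. In both pairs with HLAB6 1 the diamond lies within the range of the others.

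Plasma cells of the HLAB6 mice with many of them were deep, and those of most B6B6 mice were shallow. The median was 628, 798, 1389 and 8986 UMIs per plasma cell in B6B6 1 to 4, the last being 1 cell. It was 9013, 7786 and 1701 in HLAB6 1 to 3. B cells ranged over medians of 1463 to 1823 in the 8 mice. The depth of single plasma cells ran from 322 to 32929 UMIs, and 48 of 172 had under 2000. The log2 ratio of plasma to B cell depth was 0.71 ± 1.72 (SD, n = 7 mice), above 0 in 3 of 7 mice (exact sign permutation, adjusted p = 0.297).

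Ig genes took most of these UMIs. They made up a median of 56.9 to 81.6% of a plasma cell's UMIs by mouse and 2.25 to 2.76% of a B cell's. Outside Ig genes the median depth was 258, 372, 466 and 2754 in B6B6 1 to 4 and 3194, 3825 and 357 in HLAB6 1 to 3. The log2 ratio to B cells was then -0.75 ± 1.76 (SD, n = 7), again above 0 in 3 of 7 mice (exact sign permutation, adjusted p = 0.297).

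At equal depth plasma cells showed fewer genes than B cells, and most of that gap went with the Ig genes. Every cell with at least 1000 UMIs was thinned to that number, and the median over cells of the expected number of genes was taken. It was 114, 155, 207 and 214 in plasma cells of B6B6 1 to 4 and 199, 239 and 111 in HLAB6 1 to 3. These values rest on 2, 3, 5 and 1 plasma cells in B6B6 and on 109, 25 and 2 in HLAB6. B cells showed 513 to 549. Plasma cells were below B cells in 7 of 7 mice, by 357 ± 52.2 genes (SD). With 1000 UMIs outside Ig genes, which plasma cells of 5 mice reached, plasma cells showed 434, 473 and 566 genes in B6B6 2 to 4 and 497 and 543 in HLAB6 1 and 2. Only 2, 3 and 1 plasma cells reached this depth in B6B6 2 to 4, and 94 and 20 in HLAB6 1 and 2. The mice and cells are thus fewer than for the first measure. B cells showed 516 to 557. The mean difference was then -37.8 ± 63.5 genes (SD, n = 5), and plasma cells were below in 4 of 5 mice. The labels were drawn from clusters of these counts, so no test was made.

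Nearly every plasma cell carried 1 heavy chain class. The leading class held a median of 99.9% of a cell's heavy chain constant UMIs, at least 90% in 170 of 172 cells and 75% at the lowest. Light chain constant UMIs were led by kappa in 168 cells and by lambda in 3, all in HLAB6 1, and 1 cell had none.

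In HLAB6, 69.3% of plasma cells (104 of 150, 95% interval 61.3 to 76.6) were led by a switched class, that is IgG or IgA in place of IgM. IgG2c, the class that mice of the B6 strain make under interferon-gamma, led 51 cells, IgM 46, IgG3 20, IgG1 20, IgA 7 and IgG2b 6. In B6B6, 45.5% (10 of 22) were switched, with 12 cells led by IgM, 7 by IgG2c, 2 by IgG1 and 1 by IgG2b. No B6B6 plasma cell was led by IgG3 or IgA, 0 of 22 cells, which allows a share of up to 13.6% (3 counts), beside 13.3% and 4.67% in HLAB6. These shares pool the cells of several mice and were not tested, since cells are not replicates.

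By mouse, 71.4%, 57.1%, 14.3% and 0% of plasma cells were switched in B6B6 1 to 4, and 73.6%, 55.6% and 0% in HLAB6 1 to 3. B6B6 1 and 2 thus lay close to HLAB6 1 and 2. These are the mice in which 12 of 14 plasma cells shared a barcode. Without such cells, 2 of 9 plasma cells in B6B6 (22.2%) and 99 of 144 in HLAB6 (68.8%) were switched, and none of the 7 IgG2c-led cells of B6B6 was left. B cells were switched in 0%, 1.25%, 0.811%, 0% and 0.279% of cells in B6B6 1 to 5 and in 6.13%, 5.56% and 0.687% in HLAB6 1 to 3, so HLAB6 3 lay below B6B6 2 and 3.

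**Figure D3:**
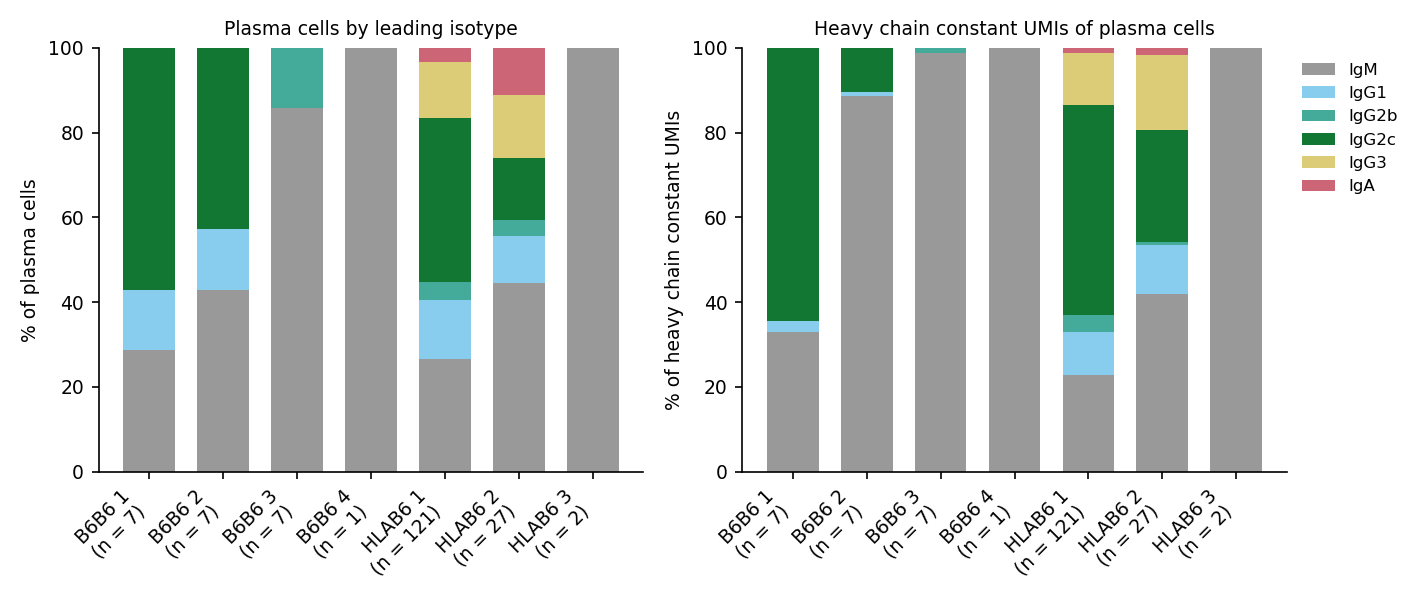
Heavy chain classes of plasma cells in the 7 mice with any, as the percentage of cells led by each class (left) and of heavy chain constant UMIs (right). IgG3 (yellow) and IgA (pink) lead cells in HLAB6 1 and HLAB6 2 only, and the single plasma cell of B6B6 4 and both of HLAB6 3 are led by IgM.

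By UMIs, the switched classes made up 67.1%, 11.5%, 1.27% and 0% of heavy chain constant UMIs in B6B6 1 to 4 and 77.3%, 58.0% and 0.0700% in HLAB6 1 to 3. In the mice with at least 5 plasma cells the mean was 26.6% ± 35.4 (SD, n = 3) in B6B6 and 67.6% ± 13.6 (SD, n = 2) in HLAB6. IgG2c took 24.9% ± 34.6 and 38.0% ± 16.4, and IgA 0.0229% ± 0.0396 and 1.49% ± 0.327. For all 3 shares the adjusted p was 0.600 by exact permutation tests over 3 and 2 mice, which cannot go below 0.2. For IgG2c the direction depended on the measure, since by leading class its share of cells was 6.50 percentage points lower in HLAB6.

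Counts summed over plasma cells were compared between groups with edgeR's quasi-likelihood test over the 3 B6B6 and 2 HLAB6 mice with at least 5 plasma cells. Of 196 genes tested, 2 (1.02%) passed an adjusted p of 0.05, and both were heavy chain constant genes higher in HLAB6. Both passed the filter on low counts only through the HLAB6 mice, and both also passed the test with no filter. Ighg3, the constant region of IgG3, had 0 CPM (counts per 1000000 counts) in B6B6 1, 2 and 3 and 25780 and 36690 in HLAB6 1 and 2 (edgeR adjusted p = 0.00913). Against a floor of 3 UMIs over these B6B6 mice this was 489-fold higher by pooled UMIs. UMIs of 1 cell are not independent, and these mice held 7 plasma cells each. By leading class, 0 of 22 B6B6 cells allows up to 13.6%, beside 13.3% in HLAB6, so by cells no fold is bounded. Igha, the constant region of IgA, had 0, 0 and 143 CPM, the last from 2 UMIs, against 2668 and 3549 (log2 fold change 5.94, SE 0.99, edgeR adjusted p = 0.0373). HLAB6 3, not in the test, had 1 Ighg3 and 0 Igha UMIs in its 2 plasma cells.

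The other classes did not pass. Ighg1 had 3432, 1180 and 0 CPM in B6B6 and 21590 and 23440 in HLAB6 (log2 3.63, SE 1.38, edgeR adjusted p = 0.800), Ighg2c had a log2 difference of 1.12 (SE 1.83) and Ighm of -1.03 (SE 0.75). Jchain differed by -0.74 (SE 0.68) and Xbp1 by 0.45 (SE 0.54). The depth of the sums was 5828, 33053 and 13975 UMIs in B6B6 against 1074716 and 240061 in HLAB6. Without cells that shared a barcode only B6B6 3 was left on the control side, and both genes then had an edgeR adjusted p of 0.365. Leaving out B6B6 2 removed both calls too (edgeR adjusted p = 0.144 and 0.390). In both settings the differences stayed about as large, with Igha at log2 5.42 and 5.25 and Ighg3 still at 0 in B6B6. Leaving out HLAB6 2 gave 12 called genes, with the lone HLAB6 mouse assumed to vary like the B6B6 mice. Leaving out B6B6 1 or B6B6 3 left 1.

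For single genes, levels in plasma cells were compared with B cells of the same mouse, as UMIs per 1000000 UMIs outside Ig genes (UPM), so that the Ig load did not set the scale. A gene was called higher or lower where it differed at least 2-fold in the same direction in both mice with at least 10 plasma cells, HLAB6 1 and HLAB6 2. The label is drawn from clusters of these counts, so these are descriptions with no test. Of 6952 genes with at least 20 UMIs, 605 (8.7%) were higher in plasma cells and 668 (9.61%) lower, and the median log2 difference was -0.19.

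Among the regulators and surface markers, 15 of 16 listed genes passed the UMI floor, 11 were higher and 1 lower, and the median log2 difference was 3.82. Jchain stood at 101433, 241183, 100158 and 160131 UPM in plasma cells of B6B6 1 to 4 and at 112740, 73184 and 165266 in HLAB6 1 to 3. In B cells it was 243 and 127 in HLAB6 1 and 2 and at most 21.2 in the other mice, so plasma cells were far above B cells in every mouse (log2 8.86 and 9.18 in HLAB6 1 and 2).

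Xbp1 stood at 1102, 3310, 1380 and 2179 UPM in B6B6 1 to 4 and 3602, 2546 and 1401 in HLAB6 1 to 3, and at 40.4 to 148 in B cells. All 7 mice were above their B cells, although the value of HLAB6 3 is 1 UMI and that of B6B6 1 is 2. Mzb1 stood at 9372, 4447, 2957 and 11256 in B6B6 1 to 4, 8886 and 5550 in HLAB6 1 and 2, and 0 in HLAB6 3, against 321 to 747 in B cells. Only HLAB6 3, with 357 UMIs outside Ig genes per cell, showed no Mzb1.

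Prdm1 was higher at 92.5 and 134 UPM against 5.64 and 8.01 in B cells of HLAB6 1 and 2 (log2 4.04 and 4.06). Irf4 was higher by 3.46 and 3.39, and Sdc1, which encodes the surface proteoglycan CD138, by 6.79 and 6.66. The surface receptor Slamf7 (4.12 and 4.09), the elongation factor Ell2 (3.88 and 3.22), which favours the secreted form of Ig, and the poly(A) polymerase Fam46c (5.56 and 5.97) were higher too. Tnfrsf17 (BCMA, the receptor for the survival factor APRIL) was higher, but its call in HLAB6 2 rests on 1 UMI. Cd38 was the member that was lower (-2.37 and -2.11), and Pou2af1, a coactivator that B cells also use, was at 351 and 491 UPM against 310 and 303.

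The genes of the unfolded protein response and of ER degradation were higher almost as a whole in HLAB6 1 and HLAB6 2. Of 26 listed, 24 passed the floor, 22 were higher and none lower, with a median log2 difference of 3.30 against -0.19 over all genes tested. The chaperone Hspa5 (BiP) stood at 4410, 1551, 2169 and 2179 UPM in B6B6 1 to 4, 4731 and 3908 in HLAB6 1 and 2 and 0 in HLAB6 3. In B cells it was at 215 to 593. The 6 mice with a value were above their B cells (log2 4.29 and 4.11 in HLAB6 1 and 2).

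Hsp90b1, the ER form of Hsp90, reached log2 4.53 and 4.48, the chaperone Creld2 5.31 and 5.88, Herpud1, which recruits substrates to the degradation complex, 4.14 and 3.65, and Derl3, a channel component of that complex, 7.33 and 6.64. Edem1 and Edem2, which mark misfolded glycoproteins for degradation, were 5.30 and 5.15 and 4.61 and 4.28 higher. The sensors and stress factors moved less. Atf6 was higher by 1.74 and 2.16 and Atf4 by 1.29 and 1.47. Ddit3 (CHOP), a factor of ER stress that leads to cell death, was at 57.1 and 44.7 UPM against 35.3 and 20.8 and was not called, like Eif2ak3 (PERK).

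The promoters of this group are shown because Xbp1 and Atf6 act through known letters there. RefSeq windows (GRCm38.p6) were searched from 250 bases before to 50 after the transcription start, on both strands, for 3 motifs. The ER stress element (ERSE) is CCAAT, 9 bases of any kind and CCACG, ERSE-II is ATTGG, 1 base of any kind and CCACG, and the unfolded protein response element (UPRE) is TGACGTGG. A UPRE was in no window of this group. Over all 32851 windows the shares were 0.119%, 0.0365% and 0.676%. Of the 22 genes of the group with a window, 6 held an ERSE (Hspa5, Hsp90b1, Dnajc3, Creld2, Syvn1 and Derl3) and 2 an ERSE-II (Dnajb11 and Herpud1). The 250 bases before the start are printed. They run 5′ to 3′ in the direction of the gene, with the element or its reverse complement in capitals.
Hspa5, chr2:34771840-34772089, plus strand: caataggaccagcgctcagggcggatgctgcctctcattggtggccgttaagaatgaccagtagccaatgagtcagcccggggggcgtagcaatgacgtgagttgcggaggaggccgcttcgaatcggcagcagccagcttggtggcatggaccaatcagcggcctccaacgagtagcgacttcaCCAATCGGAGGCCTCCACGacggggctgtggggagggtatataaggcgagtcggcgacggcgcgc
Hsp90b1, chr10:86705445-86705694, minus strand: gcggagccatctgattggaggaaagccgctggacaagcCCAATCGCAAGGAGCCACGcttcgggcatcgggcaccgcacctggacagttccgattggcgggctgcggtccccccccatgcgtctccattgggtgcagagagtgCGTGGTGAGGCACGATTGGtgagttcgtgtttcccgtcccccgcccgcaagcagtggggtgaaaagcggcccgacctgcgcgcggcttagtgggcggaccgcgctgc
Creld2, chr15:88819396-88819645, plus strand: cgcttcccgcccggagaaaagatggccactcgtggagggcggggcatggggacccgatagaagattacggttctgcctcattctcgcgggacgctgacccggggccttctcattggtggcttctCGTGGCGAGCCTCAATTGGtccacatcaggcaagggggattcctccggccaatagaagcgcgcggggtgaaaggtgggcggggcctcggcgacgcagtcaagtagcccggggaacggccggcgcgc
Derl3, chr10:75893148-75893397, plus strand: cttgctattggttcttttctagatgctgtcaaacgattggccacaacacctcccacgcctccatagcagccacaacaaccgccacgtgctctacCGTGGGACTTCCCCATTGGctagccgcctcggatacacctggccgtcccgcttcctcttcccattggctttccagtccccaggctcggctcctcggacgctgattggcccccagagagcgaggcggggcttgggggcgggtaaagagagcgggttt
Herpud1, chr8:94386179-94386428, plus strand: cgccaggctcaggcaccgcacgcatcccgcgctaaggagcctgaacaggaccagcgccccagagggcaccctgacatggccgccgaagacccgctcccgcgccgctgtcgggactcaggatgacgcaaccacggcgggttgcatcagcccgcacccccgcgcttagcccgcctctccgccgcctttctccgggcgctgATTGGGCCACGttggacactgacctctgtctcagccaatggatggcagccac

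In the Hspa5 window the ERSE lies 65 to 47 bases before the start. Hsp90b1 holds one in each orientation, at 212 to 194 and 107 to 89 bases, Creld2 a reversed one at 126 to 108 and Derl3 a reversed one at 156 to 138. The ERSE-II of Herpud1 lies 52 to 42 bases before its start. Of the 10 genes in the comparison with B cells whose window held an ERSE, 8 were higher in plasma cells and none lower. Canx (0.91 and 1.57) and Hnrnpa3 (-0.34 and -0.36) were the others. Over all 5523 genes tested that had a window, 452 were higher and 525 lower. All but Hnrnpa3 were on the unfolded protein response or folding lists, so this count is not separate from those of the lists. Of 68 tested genes with a UPRE, 17 were higher and 2 lower. Among the 18 windows of B cell identity genes and the 7 of MHC class II genes, none held an element. The 16 windows of the translocon group and the 7 of amino acid supply, both mostly higher in plasma cells, held none either. At the shares over all windows, sets this small would rarely hold one. An absence thus does not set lower genes apart from higher ones. A match is a description of these letters and not a site in use, and no match says only that the letters are not in this window.

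The machinery that brings chains into the ER was also higher. Of 23 genes of the translocon, the signal recognition particle and signal peptidase, all passed the floor, 20 were higher and none lower (median log2 2.44). Ssr4, a subunit of the translocon-associated complex, was at 2205, 1138, 3155 and 363 UPM in B6B6 1 to 4 and at 4846, 2903 and 2801 in HLAB6 1 to 3, against 106 to 196 in B cells. Every mouse was above its B cells, with B6B6 4 at 1 UMI. Sec61b, a subunit of the channel itself, was higher by 2.59 and 2.28, and Sec11c, a catalytic subunit of signal peptidase, by 3.68 and 3.36. Its counterpart Sec11a was not called (0.90 and 0.22), nor were Srp14 and Srp72.

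For N-glycosylation, 13 of 15 genes were higher and none lower (median 1.87). The oligosaccharyltransferase subunits Ddost (3.40 and 2.96) and Rpn1 (3.15 and 3.28) led. The catalytic subunit Stt3a, which works at the channel, was higher by 3.21 and 1.83. Stt3b, which acts on chains already inserted, was at 122 and 145 UPM against 135 and 136 in B cells and was not called.

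Of 18 disulfide and proline folding genes tested, 15 were higher and none lower (median 2.54). Prdx4, the ER peroxiredoxin, was higher by 5.43 and 5.58 and Fkbp11, a proline isomerase of secretory cells, by 5.37 and 5.50. The protein disulfide isomerases Pdia4 (3.73 and 3.96) and Pdia6 (3.17 and 3.25) were higher as well. Of 27 genes of ER to Golgi transport, 21 were higher and none lower (median 2.02), among them the cargo receptor Lman1 (5.45 and 4.07) and the COPII coat subunit Sec24d (3.68 and 6.26, with 1 UMI in B cells of HLAB6 2). Of 8 amino acid supply genes tested, 6 were higher and none lower (median 2.13), with the transporter chains Slc3a2 (3.48 and 4.10) and Slc7a5 (3.31 and 5.66) and asparagine synthetase Asns (6.23 and 4.80).

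**Figure D4:**
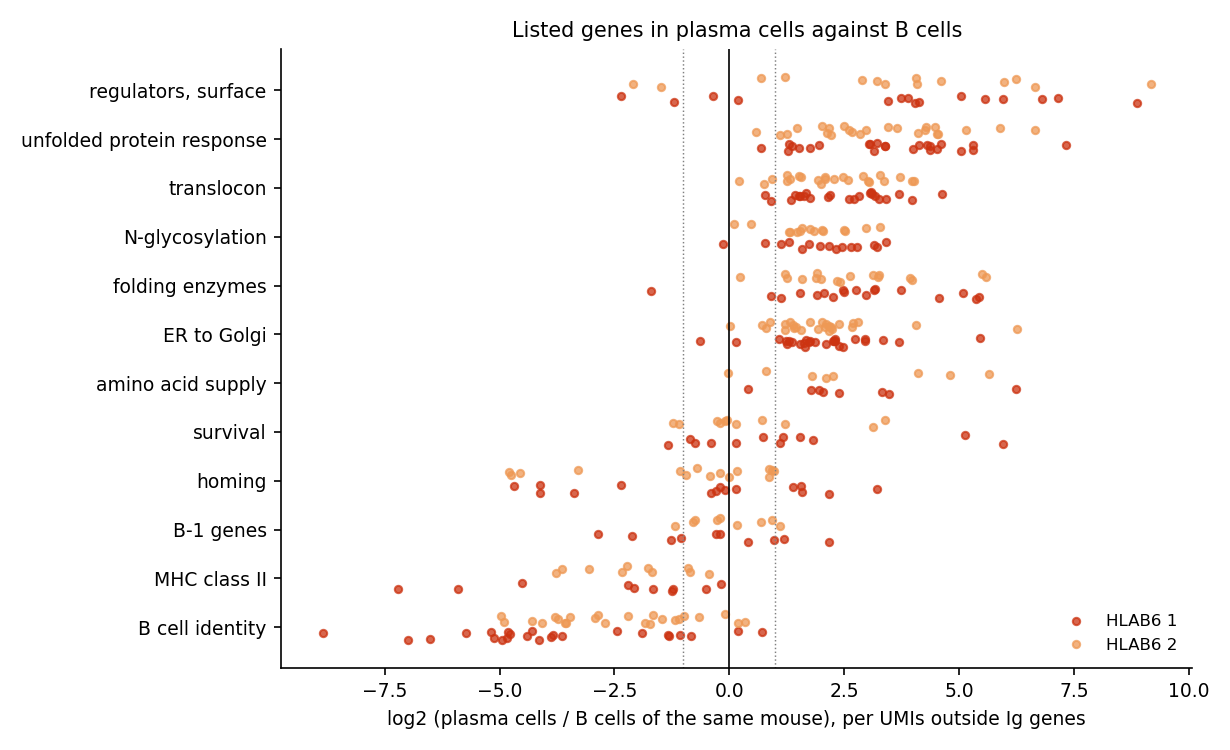
Log2 ratio of plasma cells to B cells of the same mouse for each listed gene with at least 20 UMIs, by group of genes, in HLAB6 1 (red) and HLAB6 2 (orange); dotted lines mark 2-fold, and genes at 0 UMIs in 1 cell type are drawn at their bound. Genes of the secretory groups lie mostly right of the 2-fold line (medians 1.87 to 3.30), and B cell identity and MHC class II genes mostly left of it (medians -2.99 and -1.93).

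B cell identity genes went the other way. Of 24 tested, 18 were lower in plasma cells and none higher (median -2.99). The B lineage factor Ebf1 was at 2.72 and 44.7 UPM, from 1 and 4 UMIs, against 1257 and 1343 in B cells. Ms4a1 (CD20) was at 24.5 and 78.2 against 1306 and 938. Pax5, Cd22, Cr2 and Fcer2a had 0 UMIs in all 172 plasma cells. The signalling chains of the antigen receptor were kept more. Cd79a was at 1202 and 1541 against 3001 and 3064 and Cd79b at 1208 and 603 against 2145 and 1998, and neither was called. The adaptor Blnk and the ER-resident Fcrla were not called either.

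Of 10 MHC class II genes, 7 were lower and none higher (median -1.93). The transactivator Ciita was at 10.9 and 33.5 UPM against 250 and 279. The peptide-loading genes H2-Oa (-7.22 and -3.64) and H2-DMb2 (-5.92 and -3.78) were lower, and H2-Aa by -2.08 and -2.23. Cd74, the invariant chain, stood at 15436, 14583, 11632 and 2542 UPM in B6B6 1 to 4 and 30017, 18257 and 9804 in HLAB6 1 to 3, against 27154 to 40114 in B cells. It was not called, and nor was H2-Ab1 (-0.50 and -0.90). Cd74 was found in 160 of the 172 plasma cells and H2-Ab1 in 114, but Ciita in 5.

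Of 15 homing genes tested, none was higher and 4 were lower, among them the lymph node entry receptor Ccr7 (-4.69 and -4.79), the follicle receptor Cxcr5 (-4.13 and -3.29) and Klf2 (-4.12 and -4.56), a factor that keeps lymphocytes in circulation. Cxcr3, a receptor for interferon-induced chemokines, was at 280 and 67.0 UPM against 62.1 and 76.9 in B cells, higher in HLAB6 1 only. Of 12 survival genes, 3 were higher, namely Tnfrsf17, the costimulatory receptor Cd28 (5.14 and 3.39, the latter from 3 UMIs) and Bcl2l1 (1.82 and 3.12), which encodes the anti-apoptotic Bcl-xL. Mcl1 was at 220 and 167 against 200 and 192. Beside these counts for homing and survival, 8.7% of all genes tested were higher and 9.61% lower.

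Of 10 genes of B-1 cells and of subcluster 1 that were tested, Plac8 was lower (-1.28 and -1.18) and none was higher. Over all genes tested 9.61% were lower and 8.7% higher, so these counts are near the overall shares. Bhlhe41, a factor of B-1a cells, was at 196 and 179 UPM against 100 and 83.3. Of the germinal centre and class switching list, 2 of 8 genes were tested, and Mef2b was higher (3.42 and 5.54). Bcl6, a factor of germinal centre B cells, had 0 UMIs in all 172 plasma cells.

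By the size of the lower of both ratios, the 10 genes outside the Ig loci highest above B cells were Jchain, Slpi, Prg2, Sdc1, Derl3, Pon3, Ly6c2, Fam46c, Eaf2 and Prdx4. Slpi, an antiprotease of mucosal secretions, stood at 26461, 3827, 14590 and 0 UPM in B6B6 1 to 4 and 1173, 3663 and 60224 in HLAB6 1 to 3, and at 0 to 17.4 in B cells. Its level was highest in the mice with shallow plasma cells, and 18.1% of plasma cells thinned to 1000 UMIs showed it. Prg2, an eosinophil granule protein, had 269 and 51 UMIs in plasma cells of HLAB6 1 and 2 and 0 in their B cells, at least 173-fold and 118-fold higher. Ly6c2, a surface antigen, was at 4195 and 5204 UPM against 29.6 and 68.9. Among the 10 lowest were Gm31243, Cd72, Ebf1, Ccr7, Bin1, Spib, Klf2, Ets1 and Scd1.

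The scale set how many genes were called. A change of scale shifts all ratios of a mouse by the same amount. The shifts here were too small to call a gene the other way, so that none was says nothing about the calls. With Ig UMIs in the total, 173 genes were higher and 3752 lower (median log2 -1.63), and per cell 1474 were higher and 194 lower (median 0.63). Syvn1, Sec62, Srp68 and Dad1, higher on the main scale, had ratios just below 0 when Ig UMIs were counted (-0.06 to -0.21). Measured against B cells of subcluster 1 alone, 517 genes were higher and 473 lower, of which 437 and 379 were among the main calls. The secretory groups shrank with Ig UMIs in the total, to 16 of 24 genes higher for the unfolded protein response, 10 of 23 for the translocon (median 0.99), 4 of 15 for N-glycosylation with 1 lower (median 0.43), 8 of 18 for folding, 4 of 27 for ER to Golgi transport (median 0.57) and 3 of 8 for amino acid supply with 1 lower. Their medians stayed above that of all genes on this scale, which a shift shared by all genes leaves unchanged.

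Cell cycle transcripts were concentrated in a few plasma cells. The list held 355 UMIs in the 172 plasma cells, of which 218 were in 4 cells, while 75 cells (43.6%) had at least 1 UMI and 97 had none. Each cell was thinned to 1000 UMIs, Ig UMIs included. The expected share with a UMI of the list was then 12.5% of plasma cells, 37.4% of B cells and 50.4% of T cells. Ig genes took 65.4% of pooled plasma cell UMIs and 2.63% of B cell UMIs, so thinned plasma cells kept fewer UMIs outside Ig genes. On the scale outside Ig genes the list stood at 744 UPM in plasma cells, 510 in B cells and 786 in T cells. The plasma cell level rests mostly on the 4 cells above. At least 10 UMIs of the list were found in 3 of 121 plasma cells in HLAB6 1 and 2 of 27 in HLAB6 2, against 2 of 408 and 3 of 324 B cells. That threshold was not adjusted for depth. Outside Ig genes the median depth of plasma cells was 2.21 and 2.45 times that of B cells in these mice. The 5 plasma cells past the threshold were led by IgG2c (2 cells), IgG3, IgM and IgA. Of 15 cycle genes tested, Mki67, Rrm2 and Birc5 were higher than in B cells, beside 8.7% of all genes tested, and none was lower. Once Ig UMIs were counted in the total, 8 of the 15 were lower, beside 54.0% of all genes tested. The IgM-led cell, with 41 UMIs of the list, shared its barcode with other mice, and without such cells 1 of 14 genes tested was higher.

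Plasma cells led by an IgG class were compared with those led by IgM in HLAB6 1 (85 and 32 cells) and HLAB6 2 (12 and 12). Their median depth was 9182 and 9193 UMIs in HLAB6 1 and 9578 and 8717 in HLAB6 2. Of 2634 genes with at least 20 UMIs, 64 (2.43%) were at least 2-fold higher in IgG-led cells of both mice and 18 (0.683%) in IgM-led cells, again with no test. Without shared barcodes these were 69 and 14, of which 43 and 9 were among the 64 and 18. Many of the 64 rest on few UMIs in HLAB6 2, such as Scpep1 (4 in IgG-led and 1 in IgM-led cells), Asl (3 and 1) and Uvrag (2 and 1). The pools of HLAB6 1 were unequal, at 274845 and 85932 UMIs outside Ig genes. Counting error was not separated, so 64 against 18 is no measure of an asymmetry. IgG-led cells had more Ly6c2, with 5006 against 1641 UPM in HLAB6 1 and 10648 against 1806 in HLAB6 2. Pld4, a nuclease of endolysosomes, was higher (2.25 and 2.88), and so were the lactonase Pon3 (1.42 and 2.71), Mef2b (1.52 and 3.53) and the interferon-induced GTPase Igtp (2.88 and 2.68). In HLAB6 2 Igtp rests on 5 and 1 UMIs and was at 0.18 without shared barcodes.

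IgM-led cells had more Txndc5, a disulfide isomerase, with 2688 against 782 UPM in HLAB6 1 and 2046 against 502 in HLAB6 2. Prdm1 (-1.51 and -1.23, IgG over IgM), Pou2af1 (-1.04 and -1.40) and the anti-apoptotic Bcl2 (-1.38 and -2.64) were also higher in IgM-led cells, with 3 and 9 Prdm1 UMIs and 1 and 8 Bcl2 UMIs in HLAB6 2. Without shared barcodes Prdm1 was at -0.65 in HLAB6 2 and no longer called, and Pou2af1 was at -0.99 in HLAB6 1 among cells with at least 2000 UMIs. Ccl5 was among the 18, but its UMIs came from 5 cells. Jchain was not called (-0.74 and -0.94), nor was Xbp1 (0.11 and 0.12). The 22 unfolded protein response genes tested had a median log2 ratio of 0.66, against 0.07 over all genes tested, with Hspa5 at 0.46 and 1.51, Hsp90b1 at 0.72 and 1.27 and Creld2 at 0.51 and 1.69. None of them reached 2-fold in both mice, a count that with so few calls overall says little about the group.

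**Figure D5:**
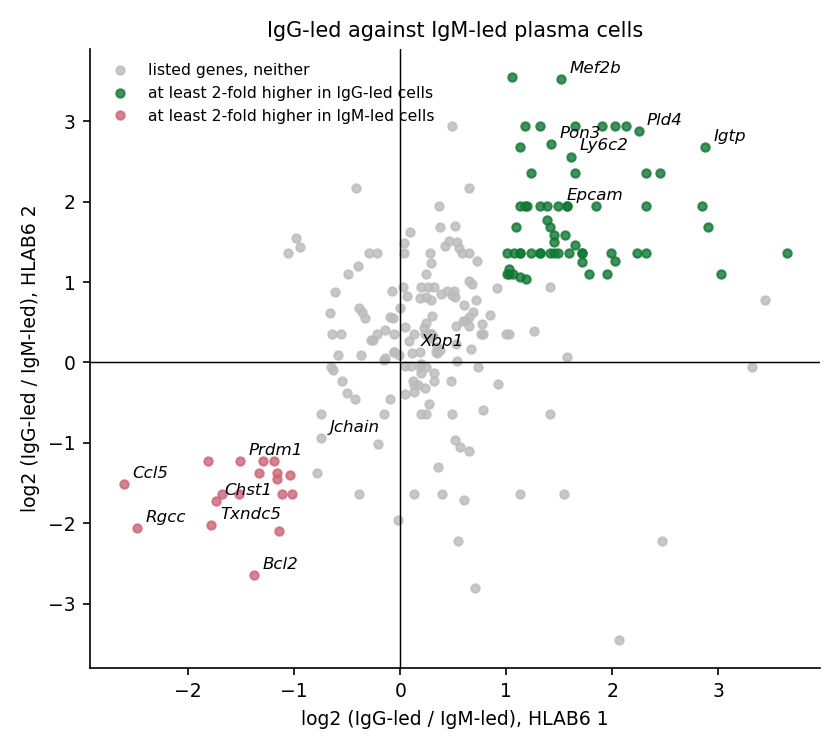
Log2 ratio of IgG-led to IgM-led plasma cells in HLAB6 1 (x axis) and HLAB6 2 (y axis), per UMIs outside Ig genes, for called genes (green and pink) and uncalled members of the gene lists (grey). Ly6c2, Pld4 and Mef2b lie in the upper right and Txndc5, Bcl2 and Prdm1 in the lower left, with Xbp1 near the centre.

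Depth also varied with class in HLAB6 1. The median was 11157 UMIs in 47 cells led by IgG2c and 9193 in 32 led by IgM, but 1776 in 17 led by IgG1 and 1703 in 4 led by IgA. In HLAB6 2 the 3 IgG1-led cells were deep, at 10788, so the low depth of IgG1 was seen in 1 mouse, and the 3 IgA-led cells were shallow in that mouse too, at 1479.

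Markers of other cell types were low in plasma cells but not absent. Epithelial and platelet lists had 0 UMIs in all 172 cells. The 8 T cell genes had 157 UMIs in 25 cells, 23 of them in the single plasma cell of B6B6 4. Of 113 monocyte or macrophage UMIs, 108 were Lyz2 in 4 cells, while C1qa, Chil3, Mrc1 and Marco were at 0. All 94 neutrophil UMIs were S100a8 or S100a9 in 5 cells, and 155 haemoglobin UMIs were in 1 cell. NK cell genes had 30 UMIs, endothelial genes 30 and plasmacytoid dendritic cell genes 21. Scrublet called 2 of the 172 plasma cells as doublets, against 22 of 2286 B cells, and these 2 were all the plasma cells of HLAB6 3.

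Mitochondrial genes made up 0.772%, 1.64%, 10.5% and 0.726% of plasma cell UMIs outside Ig genes in B6B6 1 to 4 and 0.437%, 1.34% and 0.420% in HLAB6 1 to 3, against 1.88 to 3.83% in B cells. B6B6 3 alone was above its B cells, and 2 of its 7 cells held 274 and 214 of its 533 such UMIs. Ribosomal protein genes made up 11.8 to 19.2% in plasma cells and 24.7 to 32.2% in B cells, lower in 7 of 7 mice.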

How the data were processed

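Single-cell RNA of whole dissociated lung grafts was captured with the 10x Genomics 3′ kit, and the deposited files hold whole-number counts of UMIs per gene and cell, as the authors made them, with a table of cells. Per the study's methods, reads were aligned to mm10, barcodes under 200 UMIs and genes in under 3 cells were left out, and SoupX was run to remove free RNA. The sources used here do not tell whether the deposited counts precede that last step, so free RNA can add to low levels. Cell Ranger and Seurat are named in the submitters' processing notes, and no source used here gives their versions. The table held 17921 genes, of which 99 were Ig genes. The median depth by mouse was 1356 to 1948 UMIs per cell, over all cell types.

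Plasma and B cells were taken by the deposited label, and the mouse of each cell came from the table of cells. Levels are sums of UMIs per mouse, per 1000000 UMIs outside Ig genes. A gene needed at least 20 UMIs over plasma and B cells, and a count of 0 was set to a floor of 3 counts for a bound. Named genes were the members of the gene lists, the 10 highest and 10 lowest against B cells, those called between groups, and Ig constant genes, some of which are not reported here; the examples from the comparison of IgG-led and IgM-led cells were chosen after their values were seen, as were some of the alternatives. The members and lists were chosen with earlier results of these data known. Nothing says whether mice were processed together, so p-values measure the spread between these mice only.

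Sums of plasma cells were compared with edgeR 4.0.16 in R 4.3.3 (TMM, quasi-likelihood, filterByExpr with a minimum count of 10, Benjamini-Hochberg adjustment) over mice with at least 5 plasma cells. DESeq2 1.42.0 was an alternative. Single values were compared by two-sided exact permutation tests over mice (scipy 1.17.1). Thinning to 1000 UMIs used expected values. Doublets were called per library with Scrublet in scanpy 1.11.5 (expected rate 0.06) and kept in the main results; it called 256 of 20778 cells. The scripts were tested on simulated data. Alternatives were other scales, filters and tools, no cells with shared barcodes, no doublets, subcluster 2 and each mouse left out.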

Additional observations from a re-analysis of the deposited data

Results flagged for a closer look

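Among 10 sets of mouse values tested for 1 mouse apart from the rest of its group, 4 had one, where chance gives about 1 in 20 groups. Plasma cells made up 10.8% of plasma and B cells in B6B6 1, away from the other 4 B6B6 mice, which had 0 to 2.83%. That mouse had 65 such cells, and 6 of its 7 plasma cells shared a barcode with another mouse. The median depth per plasma cell was 8986 UMIs in B6B6 4, and 2754 outside Ig genes, away from the other B6B6 mice on both measures; it is 1 cell. Mitochondrial genes made up 10.5% of plasma cell UMIs outside Ig genes in B6B6 3, and 2 of its 7 cells held most of them. The causes were not tested.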

How the results depend on the processing

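Of 88 values from alternatives set at the start, 73 kept their direction and, where tested, their side of the threshold (counts of genes: within 1.5 times), 14 moved beyond that and 1 turned. Of 71 from alternatives chosen after seeing the data, 68 stayed and 3 moved. In every test of class shares, and of the plasma cell share with a mouse left out, the smallest possible p was above 0.05. Their side of the threshold could not change, so these values tell of direction only. Direction was kept without size in places: without HLAB6 1 the difference in plasma cell share was 1.01 and that in IgG2c 1.5, and without B6B6 3 IgG2c differed by 0.623. The one that turned was IgG2c, -6.50 percentage points (HLAB6 minus B6B6) by share of cells. Genes higher and lower than in B cells numbered 173 and 3752 with Ig UMIs in the total, 1474 and 194 per cell, and 68 and 11 over the 5 mice with at least 5 plasma cells. Over these 5 mice 9 of 24 unfolded protein response genes, 7 of 23 of the translocon and 8 of 27 of ER to Golgi transport were higher. For folding, N-glycosylation and amino acid supply this was 3 of 18, 1 of 15 and 0 of 8. Of B cell identity genes 0 of 24 were lower, and of MHC class II genes 2 of 10. The B6B6 sums were shallow, so a gene not called there is not shown to be equal. With Ig UMIs in the total 8 of 15 cycle genes were lower, beside 54.0% of all genes tested, and without shared barcodes 1 was higher. Between groups edgeR called 4 genes with no filter on low counts and 0 without Ig genes (6 at an unadjusted p under 0.05). With mice of at least 2 plasma cells it called 0 (3 unadjusted), but the filter on low counts removed Ighg3 and Igha there. These 2 genes were thus not tested in that setting. HLAB6 3, which it added, had 1 Ighg3 and 0 Igha UMIs. Without shared barcodes 1 B6B6 mouse was left against 2 HLAB6 mice, with Igha at log2 5.42. DESeq2 called 2. Leaving out each mouse in turn gave 0 to 12 calls, a share difference of 1.01 to 12.1, a log2 depth ratio of 0.39 to 1.03 (-1.09 to -0.46 outside Ig genes), and differences of 0.623 to 32.8 for IgG2c, 1.24 to 1.70 for IgA and 28.3 to 61.2 for switched classes.

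With the replicate number as a block, edgeR called 2 genes, Ighg3 and Igha; the numbers name mice and do not pair them. Low numbers of B6B6 plasma cells (22) limit every comparison between groups.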

Other observations

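Iglv1, a lambda variable gene, had 2218 UMIs in 121 of the 168 kappa-led plasma cells and 19 UMIs in the 3 lambda-led cells. The cells are counted by their constant gene, and no test was made.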
